A study of Mus musculus with 12 samples.

Results

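The 10 genes followed here encode receptors, core polarity proteins and cytoplasmic effectors of noncanonical Wnt signaling: the receptors Ror1, Ror2, Ryk and Ptk7, the planar cell polarity proteins Vangl1, Vangl2, Prickle1 and Prickle2, and the formins Daam1 and Daam2. They were chosen by gene symbol, with earlier results of these data known. All 10 were found among the 15209 genes listed at P14 and the 15334 listed at P16, and all 10 passed the filter on low values in every comparison.

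DP cells, the mesenchymal cells at the base of the hair follicle that instruct the epithelium around them, were sorted by FACS from skin in anagen, the growth phase of the hair cycle, and their RNA was sequenced. The study asked what Fgf signaling in the DP does to the hair cycle. Control and dMF1/2 mice were compared at P14 and at P16 (postnatal days 14 and 16), with 3 libraries in each of the 4 groups. The dMF1/2 mice carried Cor-cre on 1 allele, a Cre driven by Corin and active in the DP, with both alleles of Fgfr1 and of Fgfr2 floxed. The labels call the controls wild type, and the breeding scheme lists controls that carried Cor-cre with 1 floxed allele of each receptor, or no Cre with both alleles floxed. Both groups carried a YFP reporter that needs Cre, and YFP marked the sorted cells, so each sort holds cells that had expressed the Cre at some time. Of the listed controls, those without Cre could therefore give no sorted cells, and those with Cor-cre would lose 1 allele of each receptor in the cells that were sorted. The genotype of each sorted control is not given in the sources used here. Strain and sex of the mice are not given in the sources used here.

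Noncanonical Wnt signals, such as those of Wnt5a and Wnt5b, act without beta-catenin. Ror1, Ror2, Ryk and Ptk7 sit in the cell membrane and take part in receiving them, Vangl and Prickle proteins gather in a complex on one face of a cell and orient it within its tissue, and Daam formins bind Dishevelled and pass the signal to the actin skeleton. In skin, planar polarity is best known for the common direction in which the hair follicles of a coat point.

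The tables held 19302358 to 29860750 reads per library over the listed genes. Both P14 libraries with the number 1 stood apart: Col1a1, the most abundant gene, took 7.06% of the reads in the control library and 9.15% in the dMF1/2 library, against 13.1% to 17.7% in all other libraries. They also held the highest sum of DP markers in their group (203071 reads in control and 203163 in dMF1/2 mice) and the lowest of the sheath (16784 and 18118) and of the fibroblast markers (58535 and 53796). In both genotypes these libraries lay at one end of their P14 group for every member but Prickle2. The part of this content in the P14 values of the members was not tested. Fgfr1 was lower in dMF1/2 mice without overlap on both days, with a log2 fold change of -0.40 at P14 (limma's adjusted p = 0.501, or 0.0691 when same-numbered libraries were blocked) and of -0.50 at P16 (limma's adjusted p = 0.130, or 0.0109 when blocked). DESeq2's adjusted p for Fgfr1 was 0.194 at P14 and 0.0335 at P16, or 0.0152 and 7.29e-05 when blocked. That of edgeR was 0.489 and 0.123, or 0.0837 and 0.0119 when blocked. Fgfr2 differed by -0.11 and -0.01 on the log2 scale. The values count reads over the whole gene, so they do not show whether a floxed exon was lost. At P16 the summed reads of 12 DP markers, scaled together over the 12 libraries like all marker values here, ran from 67652 to 121885 in control mice and from 132920.0 to 187641 in dMF1/2 mice, without overlap, with 3 of the 12 called higher and 1 lower by limma. At P14 these sums overlapped. Corin itself ran from 2736 to 12145 reads in control and from 14983 to 26845 in dMF1/2 mice at P16. Crabp1 went the other way at P16, with 4843 to 5391 reads in control and 2573 to 3794 in dMF1/2 mice. Single markers also went opposite ways at P14 without overlap. Alpl was higher in dMF1/2 mice (2364 to 3821 against 697 to 1474 reads), and Vcan (14516 to 16114 against 21708 to 26397) and Crabp1 (2576 to 5360 against 6210 to 10915) were lower. The sums of the 9 other marker lists (keratinocytes of the follicle, sheath cells and fibroblasts of the dermis, melanocytes, endothelium, immune cells, skeletal muscle, adipocytes and Schwann cells) overlapped between genotypes on both days, with 1 adipocyte gene called higher at P16 and no other call. The keratinocyte sum lay between 238 and 728 reads, and Krt25, Krt27 and Dsg4 were not in both tables. The part of the DP content of the sorts in the results on Daam2 and Prickle2 was not tested, and fewer cells of a type and less RNA per cell cannot be told apart in such samples.

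The effect of the deletion was asked within each day. At P16, Daam2 and Prickle2 were higher in dMF1/2 than in control mice, Daam2 by 2.30-fold and Prickle2 by 1.40-fold, and no other member passed the test. At P14 no member passed it, and the difference nearest to it was a lower level of Vangl1 in dMF1/2 mice. In counts, 2 of 10 members were called higher and 0 lower at P16 by limma at an adjusted p under 0.05, where 4.32% of 13457 genes were called (2.18% higher and 2.14% lower). At P14 limma called 0 of 10 members, where 0.0525% of 13334 genes were called, and 1 member had an unadjusted p under 0.05, where 7.32% of genes did. Without a block for same-numbered libraries, DESeq2 and edgeR also called 0 members at P14 and 2 at P16, where DESeq2 called 1.55% and 8.35% of genes and edgeR 0.0525% and 4.48%. With the block at P14, limma called 1 member and 1.68% of genes, DESeq2 2 members and 2.72%, and edgeR 1 member and 245 genes. At P16, 3 members had an unadjusted p under 0.05 by limma, where 19.0% of genes did. The median log2 fold change of the 10 members was 0.08 at P14 and 0.11 at P16, beside 0.00 over all genes tested on each day.

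**Figure D1:**
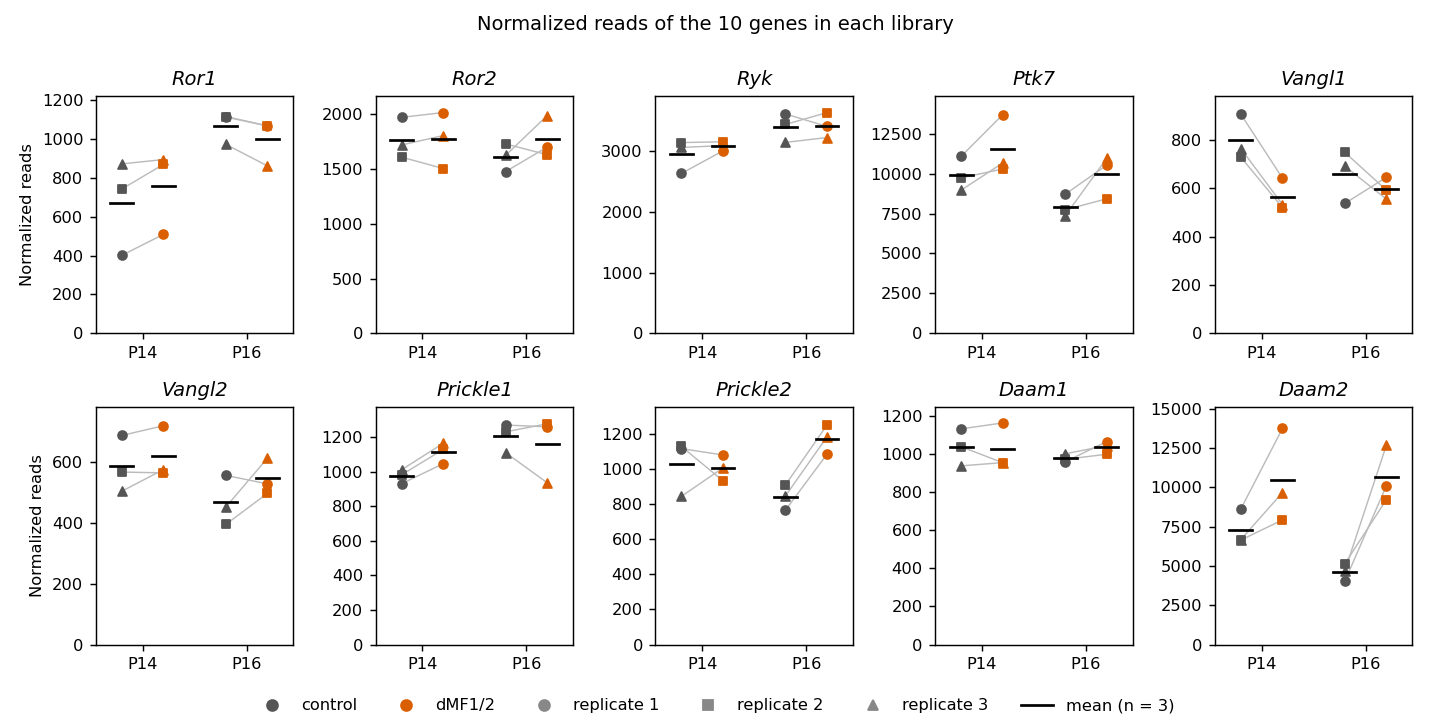
Normalized reads (vertical axes, linear from 0, in the scaling of each day) of each of the 10 genes in the 12 libraries, control in grey and dMF1/2 in orange, with the mark giving the replicate number, thin lines joining libraries of the same number and day, and black bars the mean of 3. At P16 the 3 dMF1/2 libraries lie above the 3 control libraries for Daam2 and Prickle2, and at P14 below them for Vangl1.

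Ror1 and Ror2 are receptor tyrosine kinases that bind Wnt5a. Ror1 (ENSMUSG00000035305, chr4:100095791-100444765, plus strand, mm10) was read at 402, 743 and 872 normalized reads in control and at 509, 869.5 and 894 in dMF1/2 mice at P14. The low value in each genotype came from the library numbered 1, and the groups overlapped. At P16 Ror1 stood at 1113, 1116 and 972 in control and at 1067, 1067.5 and 862 in dMF1/2 mice, again with overlap. The genotypes differed by a log2 fold change of 0.20 ± 0.33 (SE) at P14 and -0.10 ± 0.11 at P16, and within the same-numbered libraries dMF1/2 was higher in 3 of 3 at P14 and in 0 of 3 at P16. Ror2 (ENSMUSG00000021464, chr13:53109312-53286124, minus strand) ran from 1476 to 1971 normalized reads in the 6 control libraries and from 1504 to 2016 in the 6 dMF1/2 libraries of both days. Its log2 fold change was 0.00 at P14 (95% interval -0.31 to 0.31) and 0.14 at P16 (-0.10 to 0.37), so neither day showed a difference beyond the spread of the libraries.

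Ryk and Ptk7 are transmembrane proteins with kinase domains held to be inactive, Ryk as a Wnt receptor and Ptk7 as a coreceptor in planar polarity. Ryk (ENSMUSG00000032547, chr9:102834917-102908305, plus strand) had a log2 fold change of 0.07 (95% interval -0.15 to 0.29) at P14 and of 0.01 (-0.19 to 0.21) at P16. Ptk7 (ENSMUSG00000023972, chr17:46564451-46629504, minus strand) stood at 8707, 7731 and 7355 normalized reads in control and at 10538, 8429 and 10962.5 in dMF1/2 mice at P16. The dMF1/2 library was higher in 3 of 3 same-numbered pairs, but the lowest dMF1/2 value lay under the highest control value. The log2 fold change of Ptk7 was 0.33 ± 0.13 (SE) at P16, with limma's unadjusted p = 0.0315 and adjusted p = 0.206, and 0.21 ± 0.15 at P14 with limma's adjusted p = 0.888. The P14 value was 0.08 without P14 dMF1/2 replicate 1 and 0.17 without both P14 libraries numbered 1. When same-numbered libraries were blocked, limma's adjusted p for Ptk7 at P16 was 0.0906.

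Vangl1 and Vangl2 are membrane proteins at the center of the polarity complex. Vangl1 (ENSMUSG00000027860, chr3:102153583-102204693, minus strand) stood at 906, 728 and 764 normalized reads in control and at 641, 519.6 and 532 in dMF1/2 mice at P14. Every dMF1/2 library lay below every control library, and the library numbered 1 was the highest of its group in both genotypes. Vangl1 had a log2 fold change of -0.50 ± 0.13 (SE, n = 3 against 3), with limma's unadjusted p = 0.0051 and adjusted p = 0.330, and the exact two-sided permutation test gave p = 0.1, the smallest that 3 against 3 allow. When same-numbered libraries were blocked, limma called 1 member at P14, Vangl1 (adjusted p = 0.0299), and that fit called 224 genes in place of 7 (1.68%). DESeq2 with the block called 2 members, Vangl1 and Daam2, and 2.72% of genes. Without both P14 libraries numbered 1 its log2 fold change was -0.50, with limma's adjusted p = 0.241. At P16 Vangl1 stood at 537, 748 and 690.5 in control and at 645, 592 and 555 in dMF1/2 mice, with overlap and a log2 fold change of -0.13 ± 0.13 (SE). The exons of Vangl1 share 8 bases with those of the antisense gene Gm16160 in the GENCODE M21 annotation, and the libraries were stranded. Vangl2 (ENSMUSG00000026556, chr1:172000960-172028444, minus strand) differed by 0.08 at P14 and 0.23 at P16 on the log2 scale, with 95% intervals of -0.27 to 0.44 and of -0.10 to 0.56, and overlapped on both days.

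Prickle1 and Prickle2 are cytoplasmic LIM domain proteins that bind Vangl. Prickle2 (ENSMUSG00000030020, chr6:92370908-92706155, minus strand) stood at 764, 907 and 845 normalized reads in control and at 1082, 1249 and 1181 in dMF1/2 mice at P16. Every dMF1/2 library lay above every control library. Prickle2 had a log2 fold change of 0.48 ± 0.10 (SE, n = 3 against 3), with limma's adjusted p = 0.0341, and 0.0066 in the blocked fit, which called 10.4% of genes. The call was kept in 1 of the 6 fits without a library of the day: without P16 control replicate 2 limma's adjusted p was 0.0337, and leaving out any of the other 5 libraries of the day raised it to between 0.0551 and 0.120, with a log2 fold change of 0.42 to 0.54. At P14 Prickle2 stood at 1114, 1127 and 843 in control and at 1078, 931 and 1005 in dMF1/2 mice, with overlap and a log2 fold change of -0.02 ± 0.13 (SE). Prickle1 (ENSMUSG00000036158, chr15:93499114-93595891, minus strand) stood at 932, 983 and 1012 normalized reads in control and at 1047, 1129.8 and 1165 in dMF1/2 mice at P14. These groups did not overlap, but the log2 fold change was 0.19 ± 0.08 (SE) with limma's adjusted p = 0.689. At P16 Prickle1 overlapped, with a log2 fold change of -0.07 ± 0.13 (SE).

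Daam1 and Daam2 are formins, proteins that build unbranched actin filaments and that Dishevelled binds. Daam2 (ENSMUSG00000040260, chr17:49456022-49564337, minus strand) stood at 4035, 5134 and 4688 normalized reads in control and at 10090.6, 9217 and 12679 in dMF1/2 mice at P16. The lowest dMF1/2 library was far above the highest control library. Daam2 had a log2 fold change of 1.20 ± 0.14 (SE, n = 3 against 3), with a 95% interval of 0.87 to 1.53 and limma's adjusted p = 0.00611. It was called in each of the 6 fits that left out a library of the day, with limma's adjusted p from 0.0105 to 0.0322 and log2 fold changes of 1.07 to 1.30. At P14 Daam2 stood at 8620.4, 6638 and 6671 in control and at 13734, 7918 and 9659.8 in dMF1/2 mice. The dMF1/2 library was higher in 3 of 3 same-numbered pairs, yet the control library numbered 1 lay above dMF1/2 replicate 2, so the groups overlapped. The log2 fold change at P14 was 0.49 ± 0.22 (SE) with limma's adjusted p = 0.706, or 0.0685 in the blocked fit. It was 0.27 without P14 dMF1/2 replicate 1, the highest of the 6 libraries, and 0.39 without both libraries numbered 1. Daam1 (ENSMUSG00000034574, chr12:71831078-71992367, plus strand) did not show this, with 939 to 1134 normalized reads in control and 956 to 1165 in dMF1/2 libraries at P14. At P16 Daam1 ran from 960.4 to 1003 in control and from 1000.3 to 1067 in dMF1/2 mice, and its log2 fold change was 0.08 with a 95% interval of -0.09 to 0.26.

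Across members, 1 of 10 lay higher without overlap at P14 (Prickle1) and 1 lower (Vangl1), where 6.33% and 6.32% of all genes did. At P16, 2 of 10 lay higher (Daam2 and Prickle2) and 0 lower, where 12.9% and 11.6% of all genes did. With 10 members, counts of 1 and 2 were not read as a result about the members.

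**Figure D2:**
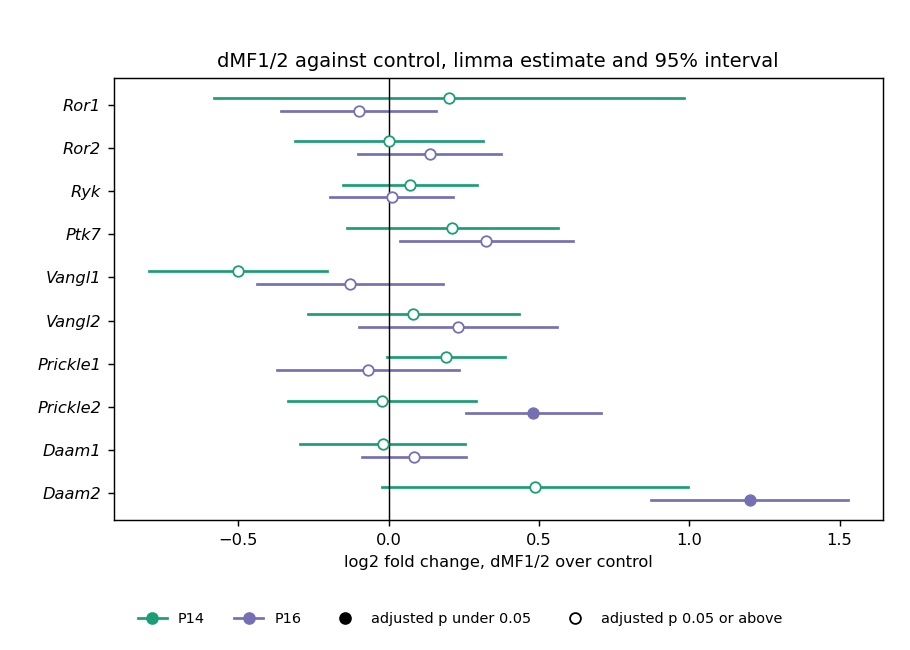
Log2 fold change of dMF1/2 over control (horizontal axis) for each of the 10 genes at P14 (green) and P16 (purple), as limma's estimate with its 95% interval and filled where the adjusted p was under 0.05. The 2 filled points are Daam2 (1.20) and Prickle2 (0.48) at P16, and the interval of Vangl1 at P14 lies wholly below 0.

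The sequence upstream of the genes that were higher in dMF1/2 mice at P16 is shown beside that of their paralogues, which did not pass the test. Each line holds the 250 bases before the most upstream RefSeq start (GRCm38.p6), read on the strand of the gene: chr17:49564338-49564587 (minus) for Daam2, chr12:71830818-71831067 (plus) for Daam1, chr6:92706185-92706434 (minus) for Prickle2 and chr15:93595903-93596152 (minus) for Prickle1. Capitals mark matches to motifs that were chosen after the sequences had been seen, searched on both strands.
Daam2: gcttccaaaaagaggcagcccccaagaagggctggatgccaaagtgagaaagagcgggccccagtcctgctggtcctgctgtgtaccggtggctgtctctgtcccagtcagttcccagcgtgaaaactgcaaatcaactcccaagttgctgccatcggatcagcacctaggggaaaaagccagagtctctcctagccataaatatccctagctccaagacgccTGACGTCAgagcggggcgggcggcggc
Daam1: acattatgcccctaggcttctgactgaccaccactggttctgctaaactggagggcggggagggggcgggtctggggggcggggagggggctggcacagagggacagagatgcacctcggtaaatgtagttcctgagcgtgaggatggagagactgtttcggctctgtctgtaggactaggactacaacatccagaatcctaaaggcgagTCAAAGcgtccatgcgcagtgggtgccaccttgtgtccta
Prickle2: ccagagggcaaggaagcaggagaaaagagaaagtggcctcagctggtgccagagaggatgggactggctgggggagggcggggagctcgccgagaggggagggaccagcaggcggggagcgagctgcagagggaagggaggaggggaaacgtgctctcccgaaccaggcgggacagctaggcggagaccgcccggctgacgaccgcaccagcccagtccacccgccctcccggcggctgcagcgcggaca
Prickle1: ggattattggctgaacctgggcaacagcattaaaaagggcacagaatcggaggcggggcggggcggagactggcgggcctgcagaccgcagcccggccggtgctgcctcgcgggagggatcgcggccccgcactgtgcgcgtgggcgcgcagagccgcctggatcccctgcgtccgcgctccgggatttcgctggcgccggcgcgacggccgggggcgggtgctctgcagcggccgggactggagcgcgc
The capitals in Daam2 are the cyclic AMP response element TGACGTCA, which 1.55% of the 32851 windows of this length hold. Those in Daam1 are the reverse complement of the TCF/LEF core CTTTGA, held by 13.8% of the windows. Windows were found for 9 of the 10 members, 15 windows in all, and Vangl1 was the member without one. Of these, 3 windows held the TCF/LEF core (Daam1, Ror1 and a downstream start of Prickle2), 1 held the AP-1 motif TGANTCA (Ror2, 6.75% of all windows), 2 held the cyclic AMP element (both starts of Daam2, whose windows overlap) and 0 held the ETS motif CCGGAAG (6.91% of all windows). A match of letters is a description of the sequence, and no binding was measured.

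The change from P14 to P16 was asked in each genotype, on reads scaled together over the 12 libraries. In control mice Daam2 fell by 0.70 on the log2 scale, and in dMF1/2 mice it differed by 0.01 between the days. The summed reads of the DP markers moved with Daam2 in control mice: they ran from 142341 to 203071 at P14 and from 67652 to 121885 at P16, without overlap. Limma called 6 of 12 lower and 0 higher. Corin went from between 20793 and 39219 reads to between 2736 and 12145. Trps1 went the other way without overlap, from between 7549 and 8100 reads to between 9095 and 11392. In dMF1/2 mice these sums overlapped, at 121639 to 203163 and 132920.0 to 187641, with 0 of 12 called. Of the sums of the 9 other marker lists, only that of melanocytes did not overlap between the days. It was higher at P16 in both genotypes, within 514 to 903 reads, most of them of Mitf (443 to 832). Single genes of these lists were called too, in control mice 2 endothelial genes, 1 Schwann cell gene and 1 melanocyte gene higher and 1 endothelial and 1 adipocyte gene lower, and in dMF1/2 mice 1 keratinocyte and 1 muscle gene lower. The part of the DP content of the sorts in the change of Daam2 was not tested. In counts, 1 of 10 members was called in control mice, lower at P16, where 14.5% of 13415 genes were called (6.26% higher and 8.28% lower). In dMF1/2 mice limma called 0 of 10 members, where 5.8% of genes were called, and 0 had an unadjusted p under 0.05, where 22.8% of genes did. In control mice 7 members had one, where 31.9% of genes did, but only 1 without P14 control replicate 1 and 3 without replicate 1 or 2 of P16. DESeq2 and edgeR called the same counts of members, 1 for control mice, where DESeq2 called 19.2% of genes and edgeR 15.1%, and 0 for dMF1/2 mice, where they called 10% and 5.72%. The members' median log2 change was -0.25 for control mice and 0.01 for dMF1/2 mice, beside 0.01 over all genes in both. The value for control mice was -0.16 without P14 control replicate 1 and -0.15 without P16 control replicate 1.

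The 3 control libraries of P14 held 8731, 6733 and 6759 commonly scaled reads of Daam2, and those of P16 held 3977, 5048 and 4630.5. The groups did not overlap. The log2 change was -0.70 ± 0.20 (SE), with a 95% interval of -1.13 to -0.27 and limma's adjusted p = 0.0369. That call was kept in 2 of the 6 fits without a library: without P14 control replicate 1, the library of the low Col1a1 share, limma's adjusted p was 0.132. It was 0.0639 without P14 control replicate 2, and the loss of control replicate 1 or 3 of P16 gave 0.129 and 0.0840. With same-numbered libraries blocked, limma called 0 members and 0.104% of genes for this change, against 1 member and 806 genes in the same 6 libraries without the block, although the numbers do not pair libraries of different days. In dMF1/2 mice Daam2 stood at 13929.5, 7993 and 9753 at P14 and at 9865.5, 9062 and 12441 at P16, so the days overlapped. The 95% interval of that log2 change ran from -0.42 to 0.44.

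Of the other members in control mice, Prickle1 and Ror1 lay higher at P16 without overlap and Vangl1 and Ptk7 lower. With Daam2 this made 2 of 10 higher and 3 of 10 lower, where 17.5% and 18.4% of all genes did so. Their log2 changes were 0.26 for Prickle1, 0.70 for Ror1, -0.33 for Vangl1 and -0.36 for Ptk7, with limma's adjusted p between 0.102 and 0.138. The Ror1 change was 0.36 without both P14 libraries numbered 1, in which Ror1 was low. Prickle2 changed by -0.32 in control mice (limma's adjusted p = 0.0893), and without P14 control replicate 3 by -0.46 (limma's adjusted p = 0.0173). Without that library Ror1 was also called, with a change of 0.92 and limma's adjusted p = 0.0479. Vangl2 changed by -0.37, Ror2 by -0.17, Ryk by 0.17 and Daam1 by -0.12, none of them called. In dMF1/2 mice 0 of 10 members were free of overlap between the days, where 27.6% of all genes were, and the largest difference in log2 level was that of Ror1 (0.39).

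**Figure D3:**
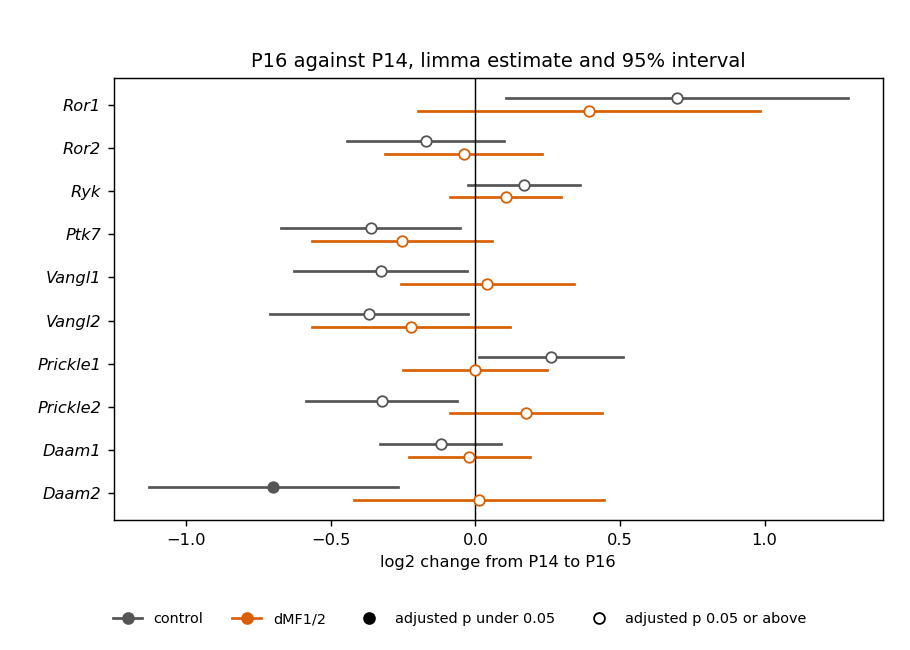
Log2 change from P14 to P16 (horizontal axis) of each of the 10 genes in control mice (grey) and dMF1/2 mice (orange), as limma's estimate with its 95% interval and filled where the adjusted p was under 0.05. The filled point is Daam2 in control mice (-0.70), and the dMF1/2 intervals of all 10 genes include 0.

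Whether the effect of genotype differed between the days was tested as an interaction. Limma called 0 of 10 members, where 0.0% of 13415 genes were called, and 2 members had an unadjusted p under 0.05, where 4.83% of genes did. These were Prickle2, whose difference of log2 fold changes (P16 minus P14) was 0.50 ± 0.17 (SE) with limma's unadjusted p = 0.0126, and Daam2, at 0.71 ± 0.28 with limma's unadjusted p = 0.0264. After adjustment limma's p was 1 for both. DESeq2 and edgeR called 0 members, with 7 genes called by DESeq2 (0.0522%). DESeq2 with same-numbered libraries blocked, a fit added after the data had been seen, called 1 member, Daam2, with DESeq2's adjusted p = 0.0148, among 163 genes (1.22%). Between Vangl1 at P14 and at P16 the effects differed by 0.37 ± 0.19 (SE) with limma's unadjusted p = 0.0823. With same-numbered libraries blocked, limma's adjusted p was 0.222 for Daam2, 0.237 for Prickle2 and 0.455 for Vangl1, so none of these differences passed the adjustment in limma.

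Ratios of reads of 2 paralogues within a library do not depend on its scaling. These pairs were chosen after the values were known, and with 3 against 3 the exact two-sided permutation test cannot go below p = 0.1. In these 8 comparisons that value became 0.2 when adjusted by the Benjamini-Hochberg method. Daam2 gave 7.60, 6.38 and 7.10 reads per Daam1 read in the control libraries at P14 and 11.8, 8.28 and 10.1 in the dMF1/2 libraries. At P16 the control libraries gave 4.20, 5.27 and 4.68 and the dMF1/2 libraries 9.45, 9.21 and 12.1. The genotypes did not overlap on either day, and the P16 control libraries held the 3 lowest ratios of all 12. The Vangl2 to Vangl1 ratio was 0.759, 0.779 and 0.660 in the control libraries at P14 and 1.12, 1.09 and 1.08 in the dMF1/2 libraries, without overlap, whereas at P16 it overlapped (0.740 ± 0.264 against 0.922 ± 0.159, SD, n = 3). The Prickle2 to Prickle1 ratio did not overlap at P16 (0.699 ± 0.0859 against 1.03 ± 0.207, SD, n = 3) and overlapped at P14. The Ror2 to Ror1 ratio overlapped on both days.

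**Figure D4:**
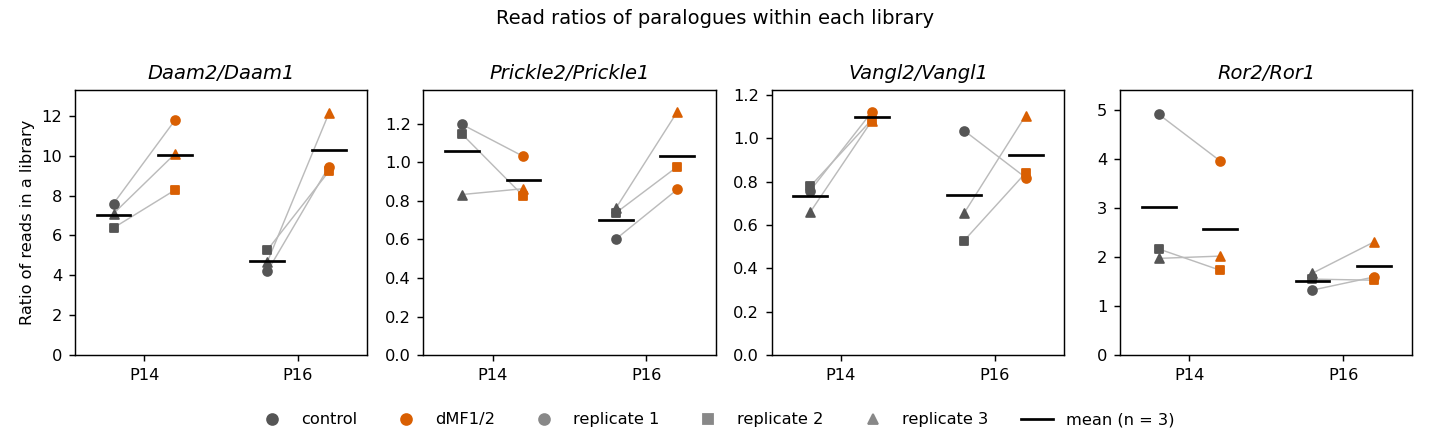
Reads of one paralogue per read of the other within each library (vertical axes, linear from 0) for 4 pairs, control in grey and dMF1/2 in orange, with marks for the replicate number, lines joining same-numbered libraries of a day and black bars the mean of 3. The Daam2 to Daam1 ratio is higher in dMF1/2 libraries on both days (means 10.1 against 7.03 at P14 and 10.3 against 4.72 at P16).

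Levels were compared between genes only per length, as commonly scaled reads per kilobase of exons. In control mice at P14 the order was Ptk7 (1869 ± 201 SD, n = 3), Daam2 (758 ± 117), Ryk (658 ± 61.5), Ror2 (422 ± 44.2), Prickle1 (228 ± 9.61), Daam1 (129.9 ± 12.1), Prickle2 (121 ± 18.9), Ror1 (118 ± 42.8), Vangl1 (113 ± 13.2) and Vangl2 (85.0 ± 13.5). Daam2 and Ryk overlapped, as did neighbours in the order from Daam1 down to Vangl1. In control mice at P16 Ryk (739 ± 50.6) stood above Daam2 (466 ± 55.2) without overlap, with Ptk7 still first at 1452 ± 127. In dMF1/2 mice Daam2 was second after Ptk7 and above Ryk without overlap on both days, at 1081 ± 312 reads per kilobase at P14 and 1070.3 ± 181 at P16. Vangl1 and Vangl2 held the lowest 2 places in all 4 groups, at 66.0 to 113 reads per kilobase on average.

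Other genes of the pathway came from a list of 77 written with earlier results of these data known, of which 74 were tested. At P16 limma called 2 higher and 2 lower, where 2.18% and 2.14% of all genes were called, and 70 did not pass the test. At P14 limma called 0, with 6 at an unadjusted p under 0.05, where 7.32% of all genes had one, and DESeq2 called 2 (Wnt5a, higher, and Fjx1, lower with DESeq2's adjusted p = 0.0203), where it called 1.55% of all genes. These counts are near the shares over all genes and were not read as a result about the list. The median log2 fold change of the 74 genes was -0.01 at P14 and -0.02 at P16. Both genes called higher at P16 encode ligands. Wnt5b stood at 387, 386 and 310.3 normalized reads in control and at 657, 830.5 and 778 in dMF1/2 mice, and Wnt5a at 3291, 3925 and 3033 in control and at 5456, 6226 and 6295 in dMF1/2 mice. Neither ligand overlapped between genotypes at P16, nor at P14. The log2 fold change of Wnt5b was 1.06 at P16 (limma's adjusted p = 0.00644) and 0.67 at P14 (adjusted p = 0.456, or 0.0160 when blocked). That of Wnt5a was 0.82 at P16 (limma's adjusted p = 0.0107) and 0.73 at P14 (limma's adjusted p = 0.221, or 0.0110 when blocked, and DESeq2's adjusted p = 0.00104 without the block). The ligands Wnt4 and Wnt11 overlapped on both days, with log2 fold changes of 0.05 and 0.19 at P14 and of -0.17 and 0.12 at P16.

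The 2 genes called lower at P16 were Dchs2, a large cadherin of the Fat and Dachsous polarity system, and Rhob, a small GTPase. Dchs2 stood at 2158, 1610.4 and 2132 normalized reads in control and at 987, 627 and 555 in dMF1/2 mice at P16, without overlap. Its log2 fold change was -1.48 ± 0.21 (SE) with limma's adjusted p = 0.0113, and without P16 control replicate 3 the adjusted p was 0.0539. In control mice Dchs2 rose by 1.60 on the log2 scale from P14 to P16 (limma's adjusted p = 0.00474). Rhob stood at 16225, 12823 and 12544 in control and at 9459.8, 8728 and 7129 in dMF1/2 mice at P16, without overlap. The log2 fold change of Rhob was -0.72 ± 0.14 (SE) with limma's adjusted p = 0.0341, and the call was kept in 1 of 6 fits without a library, where the adjusted p ran from 0.0471 to 0.114. Wnt5a lost its call without P16 dMF1/2 replicate 3, with limma's adjusted p = 0.0511. The blocked limma fit called 10 of the 74 genes at P16, 6 higher and 4 lower, where it called 10.4% of all genes, and 4 at P14, where it called 1.68%.

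**Figure D5:**
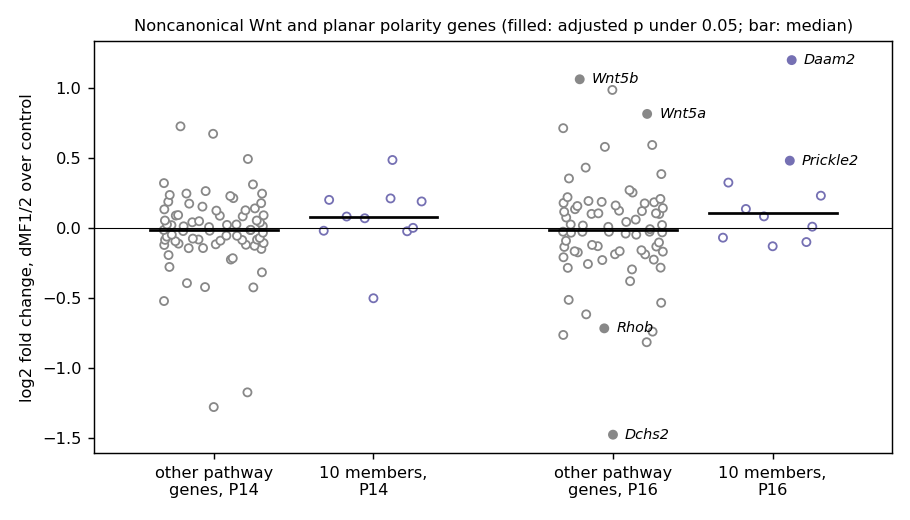
Log2 fold change of dMF1/2 over control (vertical axis) of the 74 other pathway genes (grey) and the 10 members (purple) at P14 and P16, 1 point per gene, filled and named where limma's adjusted p was under 0.05, with bars for the median. The named genes, all at P16, are Daam2, Prickle2, Wnt5b and Wnt5a above 0 and Rhob and Dchs2 below it.

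For both members called at P16, the 3 genes with the most similar pattern over the 12 libraries were named by the mean absolute difference of log2 levels, each gene centered and divided by its SD. For Daam2 they were Gpr176 (0.131 SD), Scmh1 (0.164) and Cacna1d (0.167), where the median over 13414 genes was 1.13. For Prickle2 they were Zfhx4 (0.290), Scn4b (0.318) and Prpsap2 (0.326), where the median was 1.11. Of the other members, Ptk7 was nearest to Daam2 (0.456, rank 421), followed by Prickle2 (0.529, rank 664). Wnt5a and Wnt5b stood at 0.544 and 0.543 from Daam2. All 12 libraries enter each value, and they share the genotypes, the days and the deviations of same-numbered libraries, so these distances are a description.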

How the data were processed

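RNA of FACS-sorted DP cells was sequenced by the authors as 61-base single-end reads, in 3 control and 3 dMF1/2 libraries on each day, stranded and made after ribosomal depletion. Per the authors, reads were trimmed (Trimmomatic), mapped to mm10 (TopHat, version 2), counted per Ensembl gene of GRCm38.p4 (HTSeq-count) and normalized (DESeq2). Each day has a deposited table of protein-coding genes whose signal values are read counts divided by a DESeq2 size factor of the library. The tables also hold the authors' log2 fold changes, test scores and p-values, which were not used. Values are whole multiples of 1 constant per library (100% of values, within 0.001), so the whole reads were recovered.

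Limma 3.58.1 in R 4.3.3 was fitted to log2(value + 1) of all genes whose mean reached 10, with the Benjamini-Hochberg adjustment, and an adjusted p under 0.05 was called. The genotype comparisons used the deposited scaling of a day. Days and the interaction were compared in 1 fit of the recovered reads of 14986 shared genes, rescaled by median of ratios. Fold changes are on the log2(value + 1) scale. The members and lists were chosen with earlier results of these data known. The genes named were the 10 members, Fgfr1 and Fgfr2, from the pathway list the ligands Wnt4, Wnt5a, Wnt5b and Wnt11 and every gene past the threshold in a genotype comparison of the limma fit without a block, and 3 genes of similar pattern for each member called at P16. Listed genes called between days, Fjx1 and single genes of the marker lists were named after their values were seen. Col1a1 was named as the most abundant gene, and Gm16160 for its overlap with Vangl1.

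Same-numbered libraries of a day deviated together (correlations of 0.266 to 0.573 across genes), and those of different days did not (-0.162 to 0.208). The replicate number was used as a block as an alternative. Per the authors, each library held the DP cells of a single mouse. What a number marks is not given in the sources used here, and p-values rest on the spread between these libraries. Other alternatives were DESeq2 1.42.0, edgeR 4.0.16, TMM and upper-quartile scaling, pseudocounts of 0.1 and 10, other filters, a joint fit and leaving out each library. DESeq2 and edgeR with the block, and the fit without both P14 libraries numbered 1, were added after the data had been seen. Promoter sequences are RefSeq's, and lengths are exon unions of GENCODE M21.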

Additional observations from a re-analysis of the deposited data

Results flagged for a closer look

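The effect of genotype on Daam2 differed between P14 and P16 in 1 of the tests that were run. In DESeq2 with the replicate number as a block, the log2 fold change of dMF1/2 over control was larger at P16 than at P14 by 0.708 ± 0.184 (SE), with DESeq2's adjusted p = 0.0148. In limma the difference was 0.71, with an unadjusted p = 0.0264, and the adjusted p was 1, or 0.222 with the block. The dMF1/2 library was higher in 3 of 3 same-numbered pairs on each day.

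Ror1 went one way in all same-numbered pairs of P14, with dMF1/2 higher in 3 of 3, and the other way in those of P16, with dMF1/2 higher in 0 of 3. The difference of the log2 fold changes was -0.305 ± 0.381 (SE), with limma's unadjusted p = 0.440. With the replicate block the SE was 0.111 and limma's unadjusted p = 0.0228, with an adjusted p = 0.362, so the difference did not pass the adjustment in either fit. Without P14 control replicate 1, in which Ror1 was lowest, it was 0.0292. Without both P14 libraries numbered 1 it was -0.232 ± 0.168 (SE). Groups of 3 libraries are too small for a test of single outlying libraries.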

How the results depend on the processing

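The spread between 3 libraries a group limits small differences: at P14 limma's 95% interval of Daam2 reaches 0.995 on the log2 scale. The genotype effects of Daam2 and Prickle2 at P16 were called under every scaling, pseudocount, filter and tool that was run, and that of Prickle2 was lost only where a library was left out. The cause of the changes below was not tested.

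With same-numbered libraries paired by a replicate block, limma called 1 member at P14 in place of 0 (Vangl1), DESeq2 2 (Vangl1 and Daam2) and edgeR 1, and 0 members in place of 1 for the change in control mice, where the numbers do not pair the libraries of different days and the count over all genes was 14, against 806 in the same 6 libraries without the block and 1951 in the fit of 12 libraries. Over all genes limma with the block called 224 in place of 7 at P14 and 1403 in place of 582 at P16. DESeq2 with the block called 363 and 1205 genes, and edgeR with the block 245 and 1439. DESeq2 with the block called 1 member for the interaction in place of 0. Of the other pathway genes, DESeq2 called 2, limma with the block 4, DESeq2 with the block 5 and edgeR with the block 4 in place of 0 at P14, and each of these called 10 in place of 4 at P16. The block changed no other call of a member.

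Over the fits without a library, members called ran from 1 to 2 at P16, from 0 to 3 for the change in control mice, and stayed at 0 in the other comparisons, and pathway genes called at P16 ran from 2 to 5. Over all genes these fits called 0 to 18 at P14, 149 to 684 at P16, 693 to 1945 for the change in control mice and 257 to 678 for that in dMF1/2 mice.

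Some differences, none of them called, changed sign. With another setting, the log2 fold change of Daam1 at P14 was 0.00182 (upper-quartile scaling) and that of Ror2 at P14 -0.00142 (1 fit of 12 libraries). For the change in dMF1/2 mice, Prickle1 gave 0.0154 (DESeq2) and 0.00348 (edgeR), and Daam2 -0.00331 (TMM scaling), -0.0138 (upper-quartile scaling), -0.0120 (DESeq2) and -0.0253 (edgeR). Without a library, log2 values ran for the genotype at P14 Prickle2 from -0.159 to 0.05, Vangl2 from -0.0291 to 0.203, Daam1 from -0.114 to 0.0472, Ror1 from -0.132 to 0.465, Ror2 from -0.0949 to 0.116, Ryk from -0.00844 to 0.119, Fgfr2 from -0.219 to 0.0308, Wnt4 from -0.0876 to 0.161 and Rhob from -0.460 to 0.0213. They ran for the genotype at P16 Prickle1 from -0.146 to 0.0778, Ror1 from -0.165 to 0.00335, Ryk from -0.0446 to 0.0556, Fgfr2 from -0.0861 to 0.133 and Wnt4 from -0.409 to 0.0549. They ran for the change in dMF1/2 mice Prickle1 from -0.0803 to 0.145, Vangl1 from -0.0164 to 0.139, Daam1 from -0.0701 to 0.0758, Daam2 from -0.170 to 0.231 and Ror2 from -0.156 to 0.0583. They ran for the interaction Ror1 from -0.566 to 0.0292 and Ryk from -0.117 to 0.0156.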

Other observations

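Within the 77-gene list, the calls for the change from P14 to P16 in control mice were 3 higher (Dchs2, Mapk8 and Diaph2) and 3 lower (Wnt5b, Pfn1 and Gpc6), beside 6.26% and 8.28% of all genes. Gpc6, a glypican that binds Wnt proteins at the cell surface, went from 3813 ± 612 commonly scaled reads (SD, n = 3) to 1706 ± 327, and Pfn1, the actin monomer binding protein that formins use, from 3559 ± 197 to 2476 ± 101. Neither gene overlapped between the days. Over the 6 fits without a library, the calls of Dchs2, Mapk8 and Gpc6 in control mice were kept in all 6 and those of Diaph2, Wnt5b and Pfn1 in 2. Each of these 3 was lost without P14 control replicate 2 and without replicate 1 or 3 of P16, Diaph2 and Wnt5b also without P14 control replicate 1, and Pfn1 without P14 control replicate 3. The replicate block called 0 of the list for this change, among 14 of all genes, against 4 among 806 in the same 6 libraries without the block, and DESeq2 called 11 among 2580. Mapk8, which encodes the kinase JNK1, went from 574 ± 16.5 to 912 ± 112. In dMF1/2 mice 2 genes of the list were called higher at P16 (Fzd3 and Mapk8) and 1 lower (Pfn1). Fzd3, a Frizzled receptor of planar polarity, went from 431 ± 35.6 to 608 ± 54.6, Mapk8 from 561 ± 40.6 to 736 ± 32.2 and Pfn1 from 3406 ± 615 to 2173 ± 250, each without overlap. Limma called 5.8% of all genes for that change. Over the 6 fits without a library, the call of Mapk8 in dMF1/2 mice was kept in 0, and those of Fzd3 and Pfn1 in 2, lost without dMF1/2 replicate 2 or 3 of P14 and without replicate 1 or 3 of P16. Fitted without the control libraries, limma called 0 of the list among 322 of 13368 genes, and with the replicate block 1 among 137.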
